A study of Homo sapiens with 15 samples.

Results

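Protocadherins are cell surface adhesion proteins of the cadherin superfamily. The family was taken as every gene symbol of the deposited expression table that starts with PCDH, which gave 66 of 17999 genes: 15 alpha genes (PCDHA), 16 beta genes (PCDHB), 22 gamma genes (PCDHG) and 13 genes outside these clusters. Messenger RNA was measured in 15 wild-type cultures of 2 human embryonic stem cell lines, HUES9 and H1. The 9 groups were embryonic stem cells (ESCs) with no induction (HUES9 only), neuromesodermal progenitors (srNMPs, progenitors of spinal cord and skeletal muscle) at passage 8 and at passage 25, neuron progenitors after 7 days in inductions labelled RABC and RASS, dorsal neurons, ventral neurons, and skeletal muscle at day 40 and day 50 (HUES9 only). The labels leave RABC and RASS unexplained, and they put neural induction on the srNMP, progenitor and neuron libraries and skeletal muscle induction on the muscle libraries.

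In 6 groups there was 1 HUES9 and 1 H1 library. The ESC group and both muscle groups held 1 HUES9 library each and have no replicate. Nothing in the labels says that the cultures were independent beyond the cell line, so p-values measure the spread between these libraries. Levels are in FPKM (mapped fragments corrected for transcript length and library size), so levels of different genes are compared per length. A change is the difference of log2(FPKM + 1) between groups, with its standard error (SE), from limma fitted over 14129 genes that reached 1 FPKM in at least 1 library, with the cell line as a block. Adding 1 shrinks the changes of weakly expressed genes. Calls were made where the adjusted p lay below 0.05.

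The clustered genes lie side by side on chromosome 5. Each alpha and gamma gene joins its own variable exon to constant exons that its cluster shares, whereas each beta gene stands alone. In neurons each cell uses a small set of these promoters, and the resulting mix of surface proteins gives the cell an identity by which its own branches recognise and avoid each other. A short element in the promoters, bound by CTCF, loops the chosen promoter to distant enhancers through cohesin, and DNA methylation at the promoter is tied to silence. The C-type genes (PCDHAC1, PCDHAC2, PCDHGC3, PCDHGC4 and PCDHGC5) lie at the ends of their clusters and are used in a less random way; in the mouse, PCDHGC4 is needed for interneuron survival. The non-clustered genes fall into a delta-1 group (PCDH1, PCDH7, PCDH9, PCDH11X and PCDH11Y), a delta-2 group (PCDH8, PCDH10, PCDH17, PCDH18 and PCDH19, of which several bind the WAVE actin regulators through their cytoplasmic tails) and the more distant PCDH12, PCDH15 and PCDH20.

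Windows of 32 bases show the promoter element, with its CGCT core in capitals, for some of the clustered members named below. They lie on the plus strand of RefSeq promoters (GRCh38.p14, from 250 bases before to 50 bases after each gene's start). Among the tested clustered members named below, PCDHAC2, PCDHB11, PCDHGB7, PCDHGC3 and PCDHGC4 gave no window with the longer motifs that are listed after the sequences.
PCDHA2 at chr5:140794775-140794806: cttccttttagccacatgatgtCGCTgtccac
PCDHA4 at chr5:140806973-140807004: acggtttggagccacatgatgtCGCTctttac
PCDHA6 at chr5:140827891-140827922: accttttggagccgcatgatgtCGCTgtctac
PCDHA12 at chr5:140875238-140875269: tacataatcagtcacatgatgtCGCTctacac
PCDHB2 at chr5:141094538-141094569: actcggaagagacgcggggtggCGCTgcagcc
PCDHB5 at chr5:141135173-141135204: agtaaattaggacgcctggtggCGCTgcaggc
PCDHB10 at chr5:141192293-141192324: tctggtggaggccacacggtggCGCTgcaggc
PCDHB14 at chr5:141223257-141223288: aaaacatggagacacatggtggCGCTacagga
PCDHGB4 at chr5:141387611-141387642: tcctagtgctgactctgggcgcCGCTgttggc
PCDHGB6 at chr5:141407918-141407949: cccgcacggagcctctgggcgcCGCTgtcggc
PCDHGA10 at chr5:141412925-141412956: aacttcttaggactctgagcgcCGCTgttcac

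The letters around the core differed between clusters. GATGTCGCT stood in 9 of the 13 alpha genes with a listed promoter, against 0.128% of the promoters of 27305 genes. GGTGGCGCT stood in 13 of 14 beta promoters, against 0.619% of all promoters. GCGCCGCT stood in 10 of 20 gamma promoters and GCGTCGCT in 3 of 20, against 3.88% and 1.11% of all promoters. Every search covered both strands, and these longer motifs contain CGCT, which alone stood in 71.9% of all promoters. The letters were chosen after the promoters had been read, and no reads or binding data bear on these windows.

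Gene structure limits how far these levels can be told apart. In the reference annotation a median of 46.7% of an alpha gene's exonic bases (range 19.2% to 56.6%, 15 genes) and 43.9% of a gamma gene's (27.6% to 64.4%, 22 genes) also belonged to another clustered gene, because of the shared constant exons. How reads in those exons were assigned is not stated, so alpha and gamma levels are uncertain. No exonic base of a beta gene was shared, but a median of 5.9% of the 100-base stretches of a beta gene (0% to 25.7%) recurred exactly in another member, most in PCDHB8 and PCDHB10. PCDH11X shared 32.6% of such stretches with PCDH11Y.

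The libraries were checked against their labels before the members were compared. Summed over 6 pluripotency genes, the ESC library held 1589 FPKM, against 0.537 to 56.0 in the other 14 libraries. The sum of 10 neuronal genes was 1699 to 2748 FPKM in neurons, 532 to 1036 in progenitors, 226 to 500.1 in srNMPs and 113 to 144 in muscle. In the ESC library it was 261 FPKM, within the srNMP range, of which TUBB3 gave 206 FPKM. The sum of 10 skeletal muscle genes was 3090 and 4498 FPKM in muscle and 1.14 to 35.1 elsewhere; in muscle, 8 fibroblast genes also summed to 18565 FPKM at day 40 and 11420 at day 50, against 0.864 to 22.2 elsewhere. The sum of 8 neural crest and glial genes was 41.2 to 198 FPKM in neurons, against 15.3 to 57.5 in srNMPs. In these bulk cultures, fewer cells of a type and less RNA per cell cannot be told apart, and the part of any other cell type in the results below was not tested.

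The RASS libraries went against their cell line labels. Across 13356 autosomal genes that are not protocadherins, the HUES9 minus H1 difference of the RASS group correlated at r = -0.50 with the mean difference of the other 5 groups, whereas each other group gave r of 0.14 to 0.32 with its own others. Genes are not independent, so no p is given. The labels were kept, and results on cell lines are given as labelled, with the RASS labels exchanged and without the RASS libraries.

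Of the 53 clustered genes, 27 reached 1 FPKM in at least 1 library and were tested: 5 alpha, 14 beta and 8 gamma genes. The 26 others stayed below 1 FPKM throughout. They were PCDHA1, PCDHA3, PCDHA5, PCDHA7 to PCDHA11, PCDHA13 and PCDHAC1, the beta genes PCDHB1 and PCDHB8, and the gamma genes PCDHGA1 to PCDHGA9, PCDHGA11, PCDHGA12, PCDHGB3, PCDHGB5 and PCDHGC5. Of the non-clustered genes 12 of 13 were tested, and PCDH12, a vascular protocadherin, stayed at or under 0.118 FPKM. PCDH11Y is counted here without values.

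**Figure D1:**
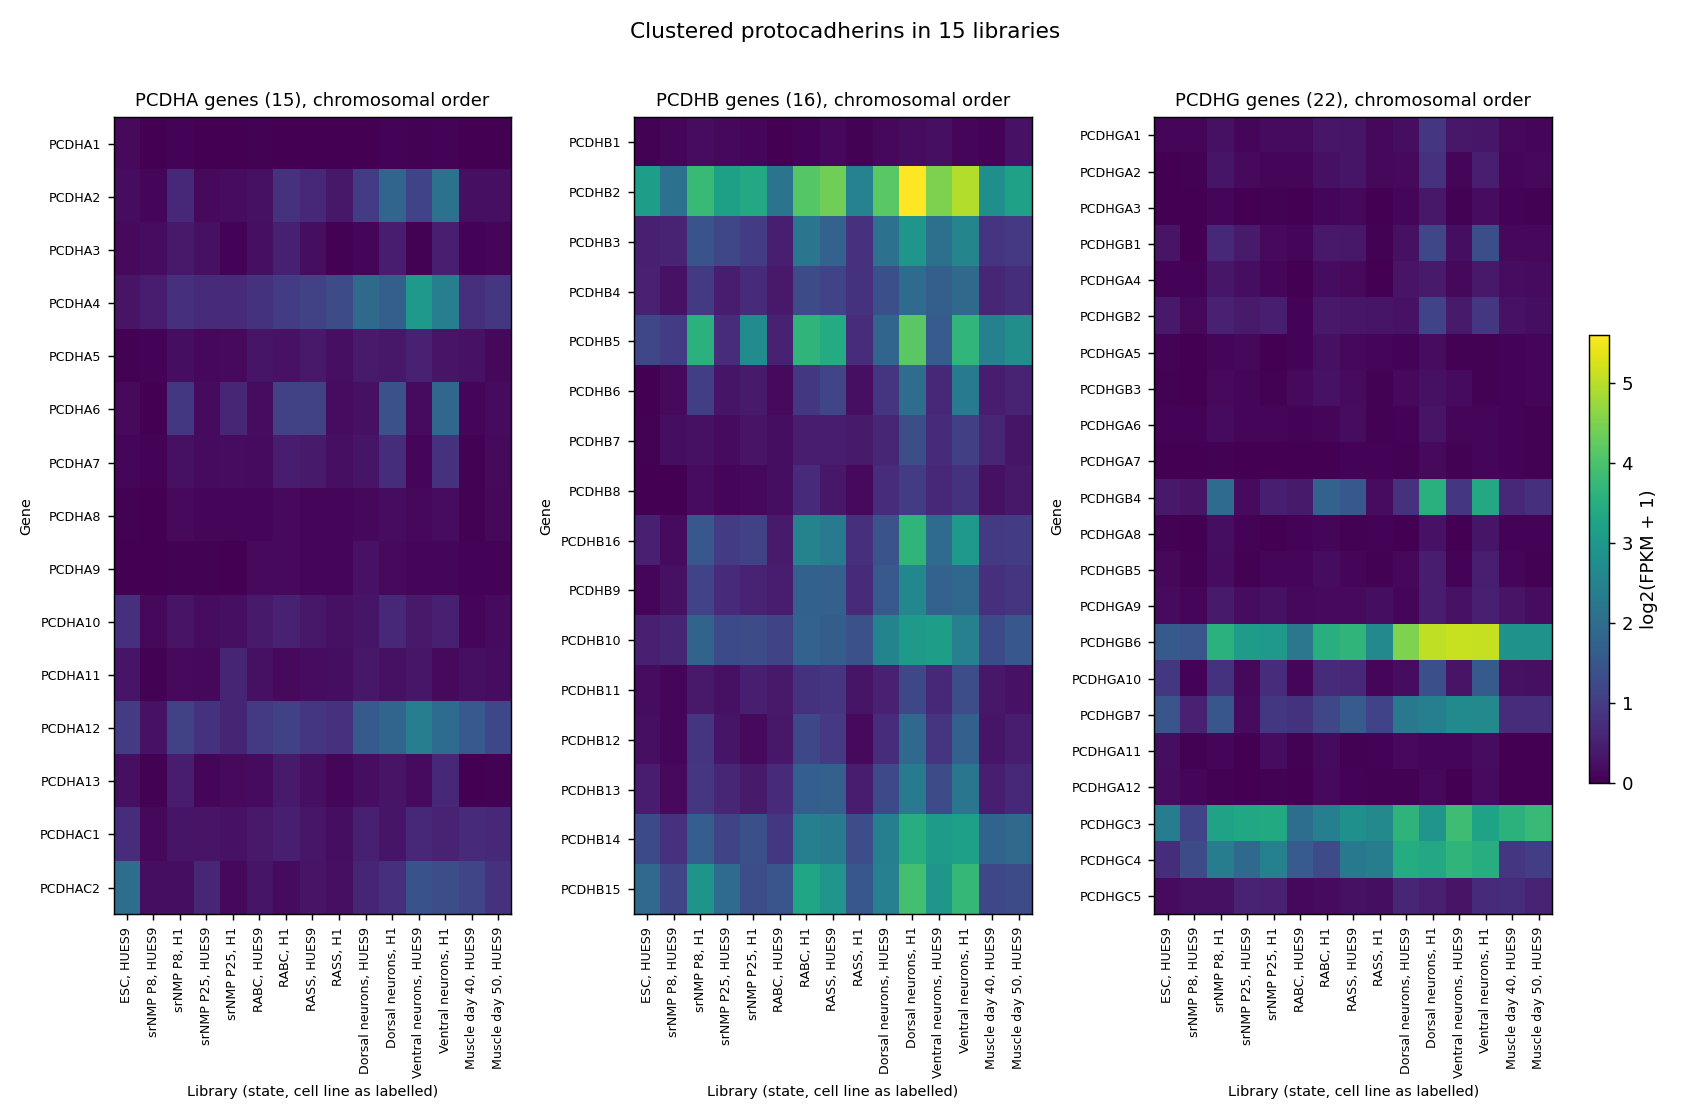
Levels of the 53 clustered protocadherins as log2(FPKM + 1) (colour) in 15 libraries (columns, by state and labelled cell line), with genes of each cluster in chromosomal order. The neuron columns are the brightest in most rows, PCDHB2 and PCDHGB6 are the brightest rows, and most alpha and gamma rows stay near 0.

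The same few genes led each cluster across the libraries. PCDHB2 was the highest beta gene in all 15 libraries and held 26.5% to 50.01% of the summed beta FPKM. PCDHGB6 or PCDHGC3 was the highest gamma gene in every library. In neurons PCDHGB6 led, with 43.7% to 50.5% of the summed gamma FPKM. In muscle PCDHGC3 led, at 11.1 FPKM on day 40 and 12.95 FPKM on day 50, which was 51.7% and 55.9% of the gamma sum. The highest alpha gene was PCDHAC2 in the ESC library and PCDHA4 or PCDHA12 in each of the other 14.

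The clustered total was highest in neurons, while the other states overlapped. In each group with both lines except RASS it was higher in the H1 library. The total was 33.4 FPKM in ESCs. In srNMPs it was 15.2 (HUES9) and 81.1 (H1) at passage 8, and 43.6 (HUES9) and 51.9 (H1) at passage 25. In RABC it was 25.4 (HUES9) and 91.1 (H1), and in RASS 92.1 in the library labelled HUES9 and 35.2 in the one labelled H1. Dorsal neurons held 105 (HUES9) and 220.2 FPKM (H1), ventral neurons 145 (HUES9) and 189.5 FPKM (H1), and muscle 47.4 FPKM at day 40 and 53.4 FPKM at day 50. All 4 neuron libraries were above the 11 others. The number of clustered genes at 1 FPKM or more was 16 and 18 in the HUES9 neurons and 26 in each H1 neuron library, against 5 to 18 in the remaining libraries.

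Neurons of both kinds were compared with srNMPs to ask which protocadherins go with the neuronal end of the differentiation. Of 39 tested members 23 were higher and 1 was lower, against 52.1% of all tested genes called in either direction, 28.8% higher and 23.2% lower. Of the 38 members described with values, every neuron library was above every srNMP library for 21 and below for 1, against 25.4% and 19.8% of all genes. Clustered members that reached 1 FPKM only in neurons (PCDHA2, PCDHB7, PCDHB11, PCDHGB1, PCDHGB2 and PCDHGA10) entered the test because of their neuronal level, so these counts support nothing by themselves. Over all 53 clustered genes with no such filter, 19 were called higher and 0 lower, against 23.8% of all genes called higher. The fitted change was positive for all 53, against 55.0% of all genes. By cluster, 8 of 15 alpha, 8 of 16 beta and 3 of 22 gamma genes were called higher without the filter. All 27 tested clustered genes also had a positive change under equal-total and quantile scaling. The median change of all genes under these scalings was 0.29 and -0.06 on the log2 scale, against 0.05 as listed. The 27 include the genes that reached 1 FPKM only in neurons, so this count also supports nothing by itself. Results under these scalings are not given for all 53 clustered genes.

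Of the alpha genes, PCDHA4, PCDHA2, PCDHA12 and PCDHAC2 rose. PCDHA4 stood at 2.83 (HUES9) and 2.25 FPKM (H1) in dorsal neurons and at 7.12 (HUES9) and 4.30 FPKM (H1) in ventral neurons, against 0.355 and 0.703 at passage 8 and 0.623 and 0.585 at passage 25 of srNMPs. The groups did not overlap, and the change was 1.62 ± 0.17 (SE; limma adjusted p = 0.000444). PCDHA2 reached 0.956 to 3.29 FPKM in neurons, against 0.0726 to 0.564 in srNMPs, a change of 1.24 ± 0.21 (limma adjusted p = 0.00258). PCDHA12 stood at 1.99 to 4.30 FPKM in neurons and at 0.212 to 1.15 FPKM in srNMPs, again without overlap. For the C-type gene PCDHAC2 the groups overlapped, since the HUES9 dorsal neurons at 0.488 FPKM lay under the HUES9 srNMPs of passage 25 at 0.512 FPKM. PCDHA6, the only other alpha gene tested, had a change of 0.50 ± 0.37 (limma adjusted p = 0.294); it stood at 1.64 and 2.60 FPKM in H1 neurons but at 0.196 and 0.117 in HUES9 neurons.

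Of the beta genes, 10 of 14 tested were called higher, with changes of 0.63 to 1.79. PCDHB14 stood at 4.32 (HUES9) and 10.2 FPKM (H1) in dorsal neurons and 7.59 (HUES9) and 7.90 FPKM (H1) in ventral neurons, against 0.746 to 2.20 FPKM in srNMPs. Every neuron library was above every srNMP library, and the change was 1.79 ± 0.39 (limma adjusted p = 0.00780). PCDHB10 rose by 1.56 ± 0.30 (limma adjusted p = 0.00463), at 4.46 to 7.83 FPKM in neurons and 0.500 to 2.44 FPKM in srNMPs. PCDHB2, the most abundant beta gene, averaged 28.9 ± 13.2 FPKM in neurons and 8.38 ± 3.88 FPKM in srNMPs (SD, n = 4 each). Its call was marginal: the change was 1.69 ± 0.60 with a limma adjusted p of 0.049996, and it held in 5 of 16 other settings and left-out libraries. PCDHB3, PCDHB9, PCDHB11, PCDHB12 and PCDHB13 were likewise lost in 6 to 9 of the 16. PCDHB4, PCDHB7, PCDHB10 and PCDHB14 kept their calls in all 16. Of the uncalled beta genes PCDHB15 was the highest, at 4.42 to 14.3 FPKM in neurons and 1.27 to 6.40 FPKM in srNMPs, and its change of 1.43 ± 0.57 missed the threshold (limma adjusted p = 0.0712).

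Of the gamma genes, PCDHGB6, PCDHGB7 and PCDHGC4 rose. PCDHGB6 was the most abundant clustered gene of the ventral neurons, at 33.9 (HUES9) and 33.7 FPKM (H1), and reached 21.9 (HUES9) and 32.6 FPKM (H1) in dorsal neurons. In srNMPs it stood at 1.78 (HUES9) and 10.9 FPKM (H1) at passage 8 and at 7.61 (HUES9) and 7.00 FPKM (H1) at passage 25. The groups did not overlap, and the change was 2.17 ± 0.47 (limma adjusted p = 0.00777). PCDHGC4 held a narrow range within neurons, at 10.4 ± 0.95 FPKM, against 3.22 ± 1.41 FPKM in srNMPs (SD, n = 4 each), and rose by 1.496 ± 0.25 (limma adjusted p = 0.00243). PCDHGB7 rose by 1.72 ± 0.24 (limma adjusted p = 0.00133), at 3.76 to 5.31 FPKM in neurons and 0.129 to 1.83 FPKM in srNMPs. PCDHGC3, a C-type gene that also leads in muscle, stood at 6.57 to 13.4 FPKM in neurons and 1.20 to 9.54 FPKM in srNMPs; the groups overlapped and it was not called (change 0.64 ± 0.44, limma adjusted p = 0.255).

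**Figure D2:**
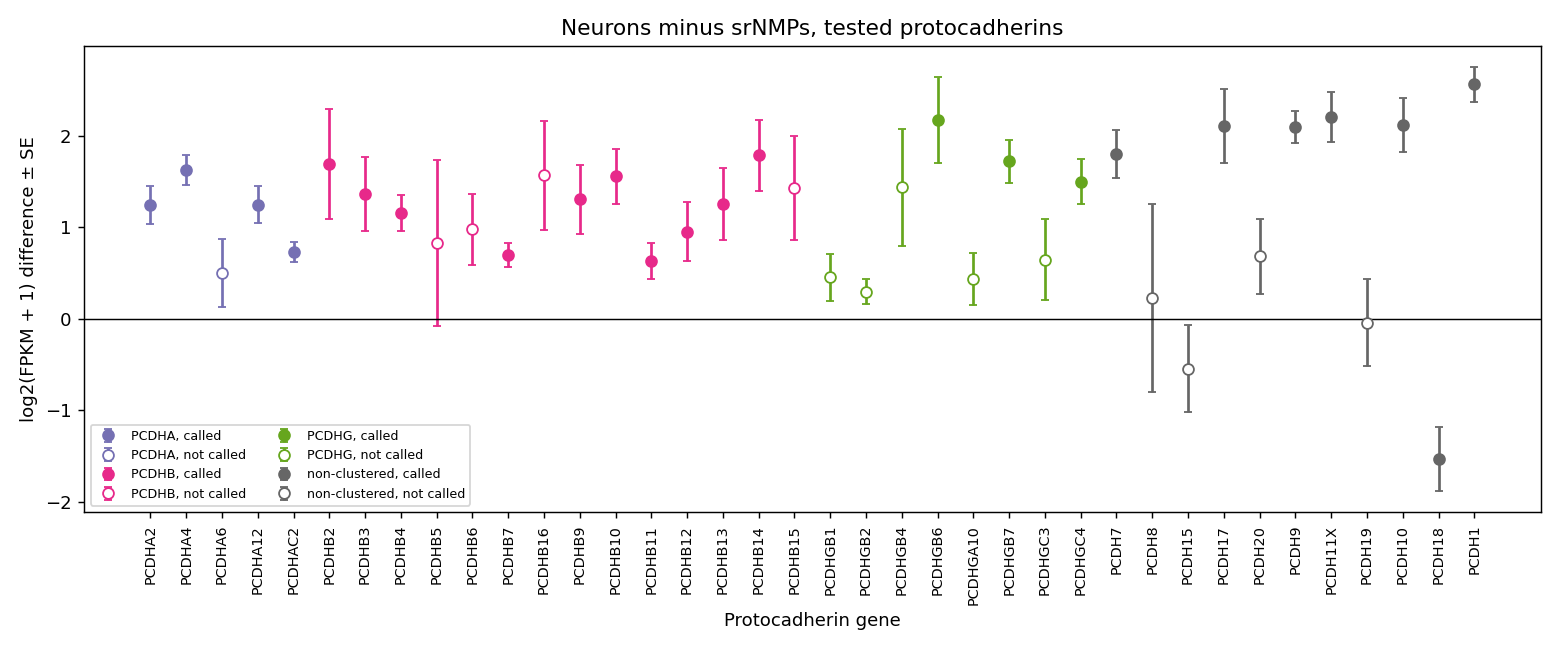
Difference of log2(FPKM + 1) between neurons and srNMPs (points, with bars of ± 1 SE from limma) for the tested protocadherins other than PCDH11Y; filled points passed an adjusted p of 0.05, and colours mark the alpha, beta, gamma and non-clustered genes. All clustered genes lie above 0, from PCDHGB2 near the line to PCDHGB6 at 2.17, and PCDH18 at -1.53 is the only filled point below it.

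Among the delta-1 genes all 4 described here rose in neurons. PCDH1, an adhesion protein also known from airway epithelium, stood at 4.75 (HUES9) and 6.65 FPKM (H1) in dorsal and 8.50 (HUES9) and 6.97 FPKM (H1) in ventral neurons, against 0.131 to 0.758 FPKM in srNMPs. Its change of 2.56 ± 0.19 was the largest of the 38 members described (limma adjusted p = 0.000169). PCDH11X rose by 2.21 ± 0.27 (limma adjusted p = 0.000871), at 2.05 to 8.62 FPKM in neurons and 0.0331 to 0.183 FPKM in srNMPs. PCDH9 rose by 2.09 ± 0.17 (limma adjusted p = 0.000225), with 2.58 to 6.52 FPKM in neurons and 0.0610 to 0.215 FPKM in srNMPs. PCDH7 rose by 1.80 ± 0.26 (limma adjusted p = 0.00152), at 4.84 to 9.70 FPKM in neurons and 0.563 to 2.29 FPKM in srNMPs. For each of the 4, every neuron library was above every srNMP library.

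The delta-2 genes went different ways. PCDH10, which in the mouse is needed for the growth of striatal axons, rose by 2.11 ± 0.30 (limma adjusted p = 0.00134). It stood at 2.58 to 16.0 FPKM in neurons and at 0.160 to 2.03 FPKM in srNMPs. PCDH17, a synaptic protocadherin of the mouse basal ganglia, rose by 2.10 ± 0.41 (limma adjusted p = 0.00484), at 4.98 to 12.5 FPKM in neurons and 0.225 to 1.79 FPKM in srNMPs. PCDH18, by contrast, fell: it stood at 9.25 to 17.7 FPKM in neurons and 19.5 to 68.8 FPKM in srNMPs, a change of -1.53 ± 0.35 without overlap (limma adjusted p = 0.00970). PCDH19, mutations in which cause an epilepsy seen mainly in females, did not pass the test (change -0.04 ± 0.48, limma adjusted p = 0.953). It averaged 7.44 ± 5.78 FPKM in neurons and 7.20 ± 4.03 FPKM in srNMPs (SD, n = 4 each). PCDH8, a paraxial mesoderm protocadherin in vertebrate embryos, was not called either (change 0.23 ± 1.03). Outside the delta groups, PCDH15, part of the tip link of hair cells, stood at 0.369 to 2.10 FPKM in neurons and 0.394 to 5.42 FPKM in srNMPs, and PCDH20 at 0.0480 to 3.04 FPKM in neurons and 0.0233 to 0.0726 FPKM in srNMPs; neither was called (limma adjusted p = 0.366 and 0.201). The sum of 5 retina and hair cell genes was at or under 1.01 FPKM in all libraries but the H1 RABC library, at 17.1 FPKM. There ATOH1 alone stood at 16.9 FPKM, and MYO7A, the next highest of the list, at 0.111 FPKM.

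**Figure D3:**
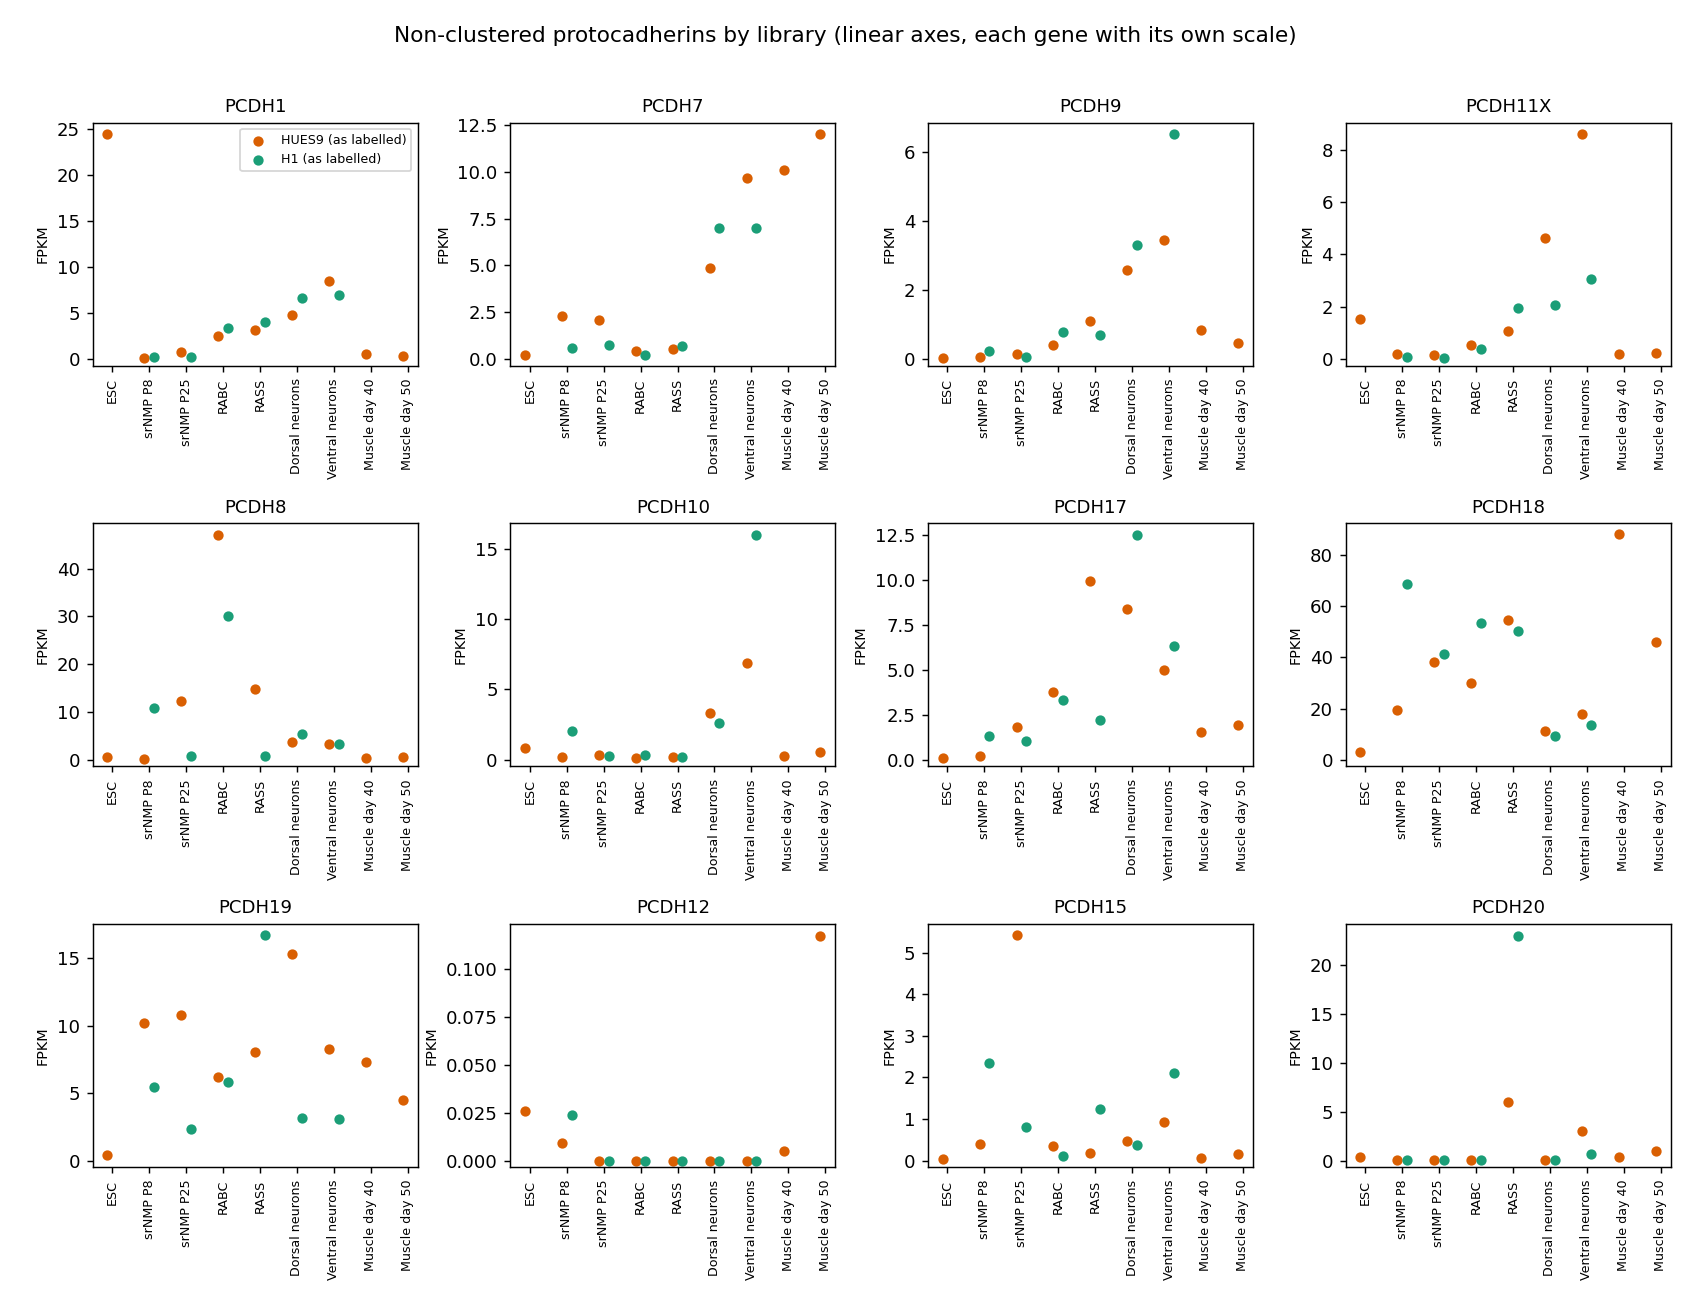
FPKM of 12 non-clustered protocadherins in every library, by state and labelled cell line, each gene on its own linear axis. PCDH1 is highest in the ESC library and lowest in srNMPs and muscle. PCDH10 and PCDH9 reach their highest values in neurons, PCDH8 in RABC and PCDH20 in RASS. PCDH7 and PCDH18 reach theirs in muscle.

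The comparison of srNMPs with ESCs concerns the exit from pluripotency and rests on 1 ESC library. Of 39 tested members 1 was higher and 2 were lower, against 16.7% of all genes called, 8.73% higher and 7.93% lower. The srNMP libraries were all above the ESC library for 13 of the 38 members described and all below it for 5, against 36.2% and 28.7% of all genes. PCDH1 stood at 0.131 to 0.758 FPKM in srNMPs, against 24.5 FPKM in ESCs, a change of -4.33 ± 0.31 (limma adjusted p = 0.000144). In no other library did it exceed 8.50 FPKM. PCDHAC2, a C-type gene, was 0.0948 to 0.512 FPKM in srNMPs and 3.04 FPKM in ESCs, a change of -1.68 ± 0.18 (limma adjusted p = 0.00112). PCDH18 was 19.5 to 68.8 FPKM in srNMPs and 3.05 FPKM in ESCs, a change of 3.11 ± 0.57 (limma adjusted p = 0.0122). PCDH19 stood at 2.32 to 10.8 FPKM in srNMPs against 0.434 FPKM in ESCs, and its change of 2.76 ± 0.78 missed the threshold (limma adjusted p = 0.0533). No gene of the beta or gamma clusters was called: PCDHB2 averaged 8.38 FPKM in srNMPs and stood at 7.87 FPKM in ESCs, and PCDHGC3 averaged 7.04 FPKM in srNMPs and stood at 4.11 FPKM in ESCs. These averages hold both lines, whereas the ESC library is HUES9. In the HUES9 srNMPs of passage 8 and passage 25, PCDHB2 stood at 3.34 and 8.08 FPKM and PCDHGC3 at 1.20 and 9.06 FPKM. With the RASS labels exchanged 1 gamma gene was called lower; the count of all members called was then 5, and it was 5 with a pseudocount of 0.1 FPKM and 6 with no filter.

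Passage 25 was compared with passage 8 to ask whether srNMPs keep their expression in culture. With limma 0 members were called, against 0% of all genes; 0 members and 255 of all genes had an unadjusted p under 0.05, and 0 members were called in any other setting. Both passage 25 libraries were above both passage 8 libraries for 2 of the 38 members described and below for 0, against 12.5% and 7.07% of all genes. PCDHGC3 had the largest change of the members described (1.18 ± 0.62), at 9.06 (HUES9) and 9.54 FPKM (H1) at passage 25 and 1.20 (HUES9) and 8.37 FPKM (H1) at passage 8. PCDH8 varied widely with no common direction, at 12.4 (HUES9) and 0.673 FPKM (H1) at passage 25 and 0.119 (HUES9) and 10.7 FPKM (H1) at passage 8.

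Progenitors after 7 days of induction were compared with srNMPs as the first step towards neurons. Only PCDH1 was called among 39 tested members, against 3.43% of all genes, 1.73% higher and 1.69% lower. All progenitor libraries were above all srNMP libraries for 5 of the 38 members described and below for 0, against 8.95% and 8.11% of all genes. PCDH1 stood at 2.44 (HUES9) and 3.39 FPKM (H1) in RABC and at 3.12 and 4.03 FPKM in the RASS libraries labelled HUES9 and H1, above all 4 srNMP libraries, a change of 1.71 ± 0.19 (limma adjusted p = 0.0122). The call was lost without the RASS libraries (limma adjusted p = 0.0764), without the H1 RABC library (limma adjusted p = 0.0704) and with only the 8 libraries compared in the fit (limma adjusted p = 0.0627). The count was 2 without the RASS library labelled HUES9 and 2 without the one labelled H1. PCDH17, PCDH9 and PCDH11X were also above the srNMPs in all 4 progenitor libraries, with limma adjusted p of 0.108, 0.0949 and 0.151. No clustered gene was called, and their median change was 0.24 over the 27 tested, against 0.02 over all genes.

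The 2 inductions were set against each other. With limma 0 of 39 tested members were called between RASS and RABC, against 0.517% of all genes; 2 members and 1206 genes had an unadjusted p under 0.05. RASS lay above RABC without overlap for 7 of the 38 members described and below for 2, against 27.5% and 18.4% of all genes. PCDH20 came nearest to the threshold. It stood at 6.01 and 22.97 FPKM in the RASS libraries labelled HUES9 and H1, against 0.0117 (HUES9) and 0.0473 FPKM (H1) in RABC, a change of 3.65 ± 0.58 (limma adjusted p = 0.0573). The count of members called was 1 with a pseudocount of 0.1 FPKM, with no line block, with the RASS labels exchanged or without the RASS library labelled HUES9. PCDH8 lay the other way, at 14.8 and 0.736 FPKM in RASS (labelled HUES9 and H1) and 47.1 (HUES9) and 30.1 FPKM (H1) in RABC, with no overlap but a change of -2.89 ± 1.45 (limma adjusted p = 0.697). Both genes thus reached their highest level of the series in these 7-day cultures. PCDH20 has been described as a growth suppressor in tumour cells.

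Neurons were also compared with the progenitors. Here 16 members were higher and 1 was lower of 39 tested, against 37.8% of all genes, 21.3% higher and 16.5% lower. Neurons were above progenitors without overlap for 16 of the 38 members described and below for 1, against 21.2% and 17.4% of all genes. Members that reached 1 FPKM only in neurons, PCDHA2 and PCDHB7 among those called, entered the test because of their neuronal level. These counts thus support nothing by themselves. Over all 53 clustered genes with no filter, 12 were called higher and 0 lower, against 17.3% of all genes called higher, and 51 changes were positive, against 55.4% of all genes. The called clustered genes were PCDHA2, PCDHA4, PCDHA12, PCDHAC2, PCDHB4, PCDHB7, PCDHB10, PCDHB14, PCDHGB6, PCDHGB7 and PCDHGC4. PCDHGB6 stood at 21.9 to 33.9 FPKM in neurons and 3.66 to 11.6 FPKM in progenitors, a change of 1.95 ± 0.47 (limma adjusted p = 0.0166). PCDHGC4 changed by 1.62 ± 0.25 (limma adjusted p = 0.00291), at 9.46 to 11.7 FPKM in neurons and 1.48 to 4.11 FPKM in progenitors. PCDHA4 changed by 1.22 ± 0.17 (limma adjusted p = 0.00206). The calls of PCDHB4, PCDHB7, PCDHB10, PCDHB14 and PCDHGB6 held in 8 to 13 of 16 other settings and left-out libraries, and those of the other 6 clustered genes in all 16.

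The largest changes of this step were in non-clustered genes. PCDH10 stood at 2.58 to 16.0 FPKM in neurons and 0.127 to 0.320 FPKM in progenitors, a change of 2.48 ± 0.30 (limma adjusted p = 0.00140). PCDH7 stood at 4.84 to 9.70 FPKM in neurons and 0.221 to 0.688 FPKM in progenitors, a change of 2.44 ± 0.26 (limma adjusted p = 0.00107). PCDH9, PCDH11X and PCDH1 rose by 1.47, 1.43 and 0.85, and PCDH18 fell by 1.78 ± 0.35 (limma adjusted p = 0.00761). The total of called members was 29 with the RASS labels exchanged and 18 without the RASS libraries. It was 33 without the RASS library labelled HUES9, and 11 without the HUES9 RABC library. This comparison and the one with srNMPs share their neuron libraries.

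Ventral and dorsal neurons were compared to ask whether the dorsal or ventral fate goes with protocadherin use. With limma 0 of 39 tested members were called, against 2.04% of all genes; 3 members and 2333 genes had an unadjusted p under 0.05. Ventral lay above dorsal neurons without overlap for 12 of the 38 members described and below for 2, against 25.9% and 20.6% of all genes. PCDH10 had the largest change, at 6.88 (HUES9) and 16.0 FPKM (H1) in ventral and 3.33 (HUES9) and 2.58 FPKM (H1) in dorsal neurons. Both ventral libraries were above both dorsal ones, but the change of 1.56 ± 0.42 missed the threshold (limma adjusted p = 0.130). PCDH9 stood at 3.45 (HUES9) and 6.52 FPKM (H1) in ventral and 2.58 (HUES9) and 3.31 FPKM (H1) in dorsal neurons, with a limma adjusted p of 0.315. PCDH17 lay lower, at 4.98 and 6.31 FPKM in ventral and 8.37 and 12.5 FPKM in dorsal neurons (limma adjusted p = 0.605). Within these neurons the neural crest and glial sum was 94.9 (HUES9) and 41.2 FPKM (H1) in ventral and 198 (HUES9) and 119 FPKM (H1) in dorsal cultures, and its part was not tested.

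Muscle was compared with srNMPs as the mesodermal end of the differentiation, with 1 HUES9 library at each of 2 days. Of 39 tested members 3 were higher and 1 was lower, against 49.8% of all genes, 18.2% higher and 31.6% lower. Muscle lay above srNMPs without overlap for 9 of the 38 members described and below for 2, against 24.6% and 43% of all genes. PCDH7 stood at 10.1 FPKM on day 40 and 12.05 FPKM on day 50, against 0.563 to 2.29 FPKM in srNMPs, a change of 2.23 ± 0.34 that was called in all 13 other settings and left-out libraries (limma adjusted p = 0.00164). PCDHAC2 and PCDH9 were also called higher, at changes of 0.65 each, and PCDHGC4 lower at -0.96 ± 0.32 (limma adjusted p = 0.0395). PCDH9 kept its call in 4 of the 13 and PCDHGC4 in 6. The count was 1 without the day 40 library and 2 without the day 50 library or the HUES9 srNMPs of passage 25. PCDH18 reached its highest level of the series in muscle, at 88.1 and 46.1 FPKM, but the srNMPs ranged up to 68.8 FPKM (change 0.89 ± 0.45, limma adjusted p = 0.145). All 8 fibroblast genes were also called higher in muscle, and the part of fibroblasts in these results was not tested. All genes together had a median change of -0.22, so the median of 0.23 over the 27 tested clustered genes lay above it; 25 of the 27 were positive as listed and 18 after quantile normalization.

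Set against neurons, muscle was lower in 12 members and higher in 1 of 39 tested, against 46.5% of all genes, 14.6% higher and 31.9% lower. It lay below neurons without overlap for 29 of the 38 members described and above for 2, against 46.4% and 19% of all genes. Members that reached 1 FPKM only in neurons entered the test because of their neuronal level, so these counts support nothing by themselves. Over all 53 clustered genes with no filter, 0 were called higher and 7 lower, against 14.5% and 24.9% of all genes. Of those 53 changes 7 were positive, against 34.1% of all genes. PCDHGC4 stood at 0.846 and 1.02 FPKM in muscle against 9.46 to 11.7 FPKM in neurons, a change of -2.46 ± 0.32 (limma adjusted p = 0.000830). PCDH1 stood at 0.476 and 0.282 FPKM in muscle against 4.75 to 8.50 FPKM in neurons (change -2.44 ± 0.24, limma adjusted p = 0.000245). PCDH11X and PCDH10 fell by 2.24 and 2.08. PCDH18 was the member called higher, by 2.42 ± 0.45 (limma adjusted p = 0.00451). The others called lower were PCDHA2, PCDHA4, PCDHB4, PCDHB10, PCDHGB6, PCDHGB7, PCDH17 and PCDH9. Of these, PCDHB4, PCDHB10, PCDHGB6 and PCDH17 were called in only 5 to 7 of 13 other settings and left-out libraries, and the total was 8 without the day 40 library. PCDH7 lay above neurons without overlap, at 10.1 and 12.05 FPKM in muscle and 4.84 to 9.70 FPKM in neurons, but was not called (change 0.43, limma adjusted p = 0.328). PCDHGC3 overlapped, at 11.1 and 12.95 FPKM in muscle and 6.57 to 13.4 FPKM in neurons. Between the muscle days there was no test, with 1 library each. The most abundant member, PCDH18, was at 46.1 FPKM on day 50 and 88.1 FPKM on day 40.

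In every group with both lines except RASS, more clustered genes were lower than higher in the HUES9 library, at passage 25 only by a small margin. As labelled, limma called 0 of 39 tested members between HUES9 and H1, against 0% of all genes; 4 members and 512 genes had an unadjusted p under 0.05. No member had all HUES9 values below or above all H1 values, against 0.0283% of all genes below and 0% above. Of all 53 clustered genes, 52 were lower in the HUES9 library of srNMPs at passage 8, 46 in RABC, 44 in dorsal neurons, 39 in ventral neurons and 30 in srNMPs at passage 25. In the RASS group 7 were lower and 46 higher in the library labelled HUES9. Over all 17999 genes the share lower in HUES9 was 46.8% in srNMPs at passage 8, 43.9% in RABC, 46.3% in dorsal neurons, 51.1% in ventral neurons, 44.1% in srNMPs at passage 25 and 42.3% in RASS. The beta cluster was the most uniform: 16 of 16 genes were lower in HUES9 in srNMPs at passage 8, RABC and dorsal neurons, 14 in ventral neurons, 10 in srNMPs at passage 25 and 0 in RASS. Neighbouring genes of a cluster are not independent, so these counts carry no p.

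**Figure D4:**
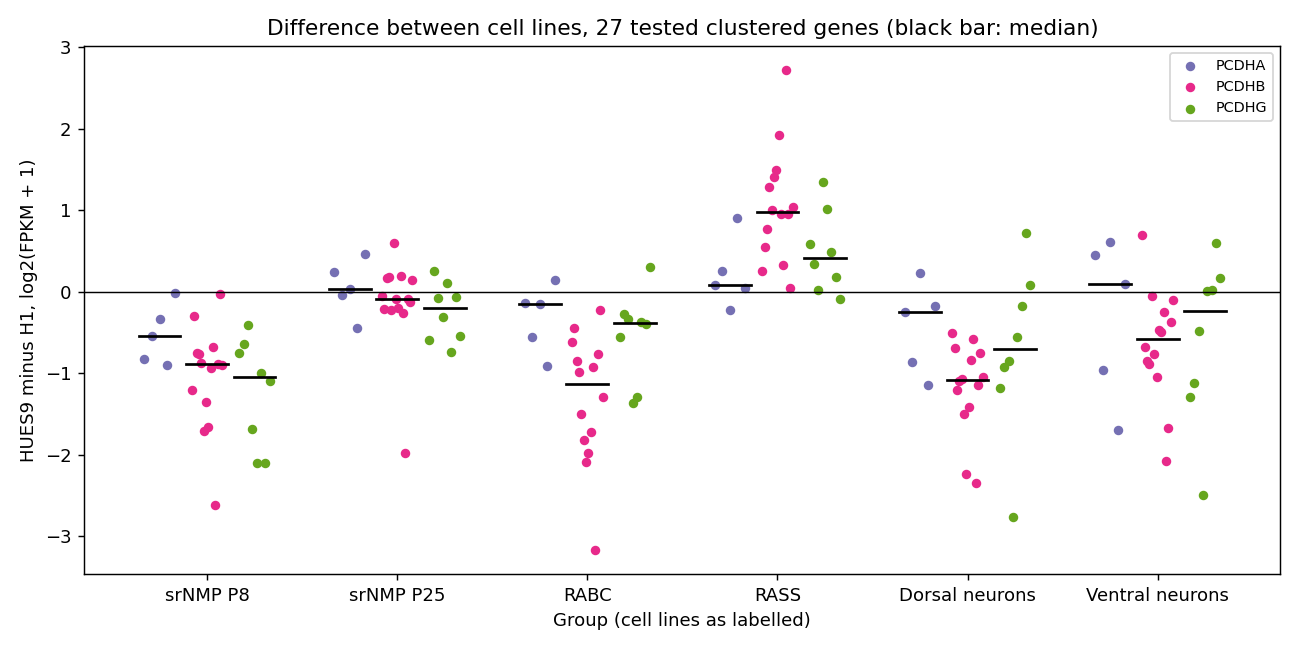
HUES9 minus H1 difference of log2(FPKM + 1), as labelled, for the 27 tested clustered genes (points, coloured by cluster) in the 6 groups with both lines; black bars are medians. Beta genes lie below 0 in srNMPs at passage 8, RABC and dorsal neurons, on both sides of 0 in srNMPs at passage 25 (from -1.97 for PCDHB5 to 0.60 for PCDHB15), and above 0 in RASS.

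Among the tested clustered genes PCDHB5 showed the widest gap on the log2 scale in srNMPs at both passages, RABC and RASS. In both neuron types PCDHGB4 showed a wider one. PCDHB5 stood at 0.967 FPKM in HUES9 and 10.998 FPKM in H1 srNMPs at passage 8, and at 0.644 FPKM in HUES9 and 5.46 FPKM in H1 srNMPs at passage 25. In RABC it was 0.420 FPKM in HUES9 and 11.8 FPKM in H1, and in RASS 9.82 FPKM in the library labelled HUES9 and 0.640 FPKM in the one labelled H1. In dorsal neurons it was 2.53 FPKM in HUES9 and 16.9 FPKM in H1, and in ventral neurons 2.05 FPKM in HUES9 and 11.8 FPKM in H1. All 5 groups other than RASS thus had the higher value in H1. The 3 groups with HUES9 alone gave 1.28 FPKM in ESCs and 4.48 and 5.77 FPKM in muscle at day 40 and day 50.

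With the RASS labels exchanged, an alternative chosen after seeing the data, limma called 3 members lower in HUES9 among 39 tested, against 0.411% of all genes called lower. They were PCDHB5 (change -2.48 ± 0.17, adjusted p = 0.000737), PCDHA6 (-0.996 ± 0.15, adjusted p = 0.0296) and PCDHGA10 (-0.82 ± 0.12, adjusted p = 0.0288), 1 of each cluster. PCDHGA10 reached 1 FPKM only in the H1 neurons. PCDHA6 reached it only in H1 RABC, the H1 neurons and the RASS library labelled HUES9. Both thus entered the test through libraries that this setting counts as H1, so the calls of these 2 genes support nothing by themselves. Without the RASS libraries PCDHB5 alone was called (-2.43 ± 0.20, adjusted p = 0.00656), against 0.212% of all genes called lower without both. With either RASS library left out alone, 1 member was called. As labelled the change of PCDHB5 was -1.57 ± 0.74 (limma adjusted p = 0.883). PCDHA6 and PCDHGA10 stayed at or under 0.230 FPKM in all HUES9 libraries of srNMPs, RABC and neurons, whereas the H1 libraries of the same groups held 0.511 to 2.60 FPKM of PCDHA6 and 0.583 to 1.999 FPKM of PCDHGA10. The HUES9 ESC library was at 0.104 FPKM of PCDHA6 and at 0.866 FPKM of PCDHGA10. PCDHGB4 stood at 0.733 and 0.861 FPKM in HUES9 dorsal and ventral neurons and at 10.8 and 9.43 FPKM in H1 dorsal and ventral neurons, but was not called with the labels exchanged (limma adjusted p = 0.0712).

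**Figure D5:**
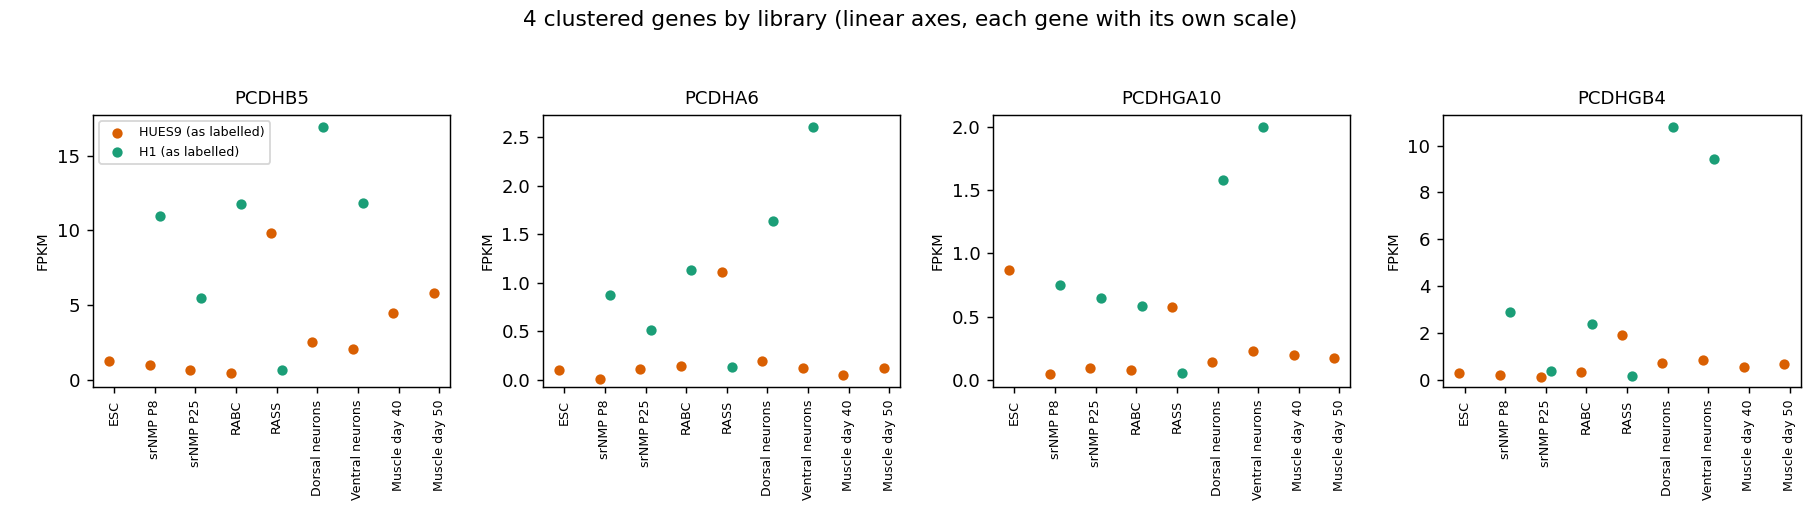
FPKM of PCDHB5, PCDHA6, PCDHGA10 and PCDHGB4 in every library, by state and labelled cell line, each gene on its own linear axis. H1 points are above HUES9 points in srNMPs, RABC and both neuron types, and below them in RASS.

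Whether the lines differed more in neurons than in srNMPs was tested as an interaction. With limma 0 members were called, against 0.0142% of all genes; 3 members and 727 genes had an unadjusted p under 0.05. For PCDHGB4 the HUES9 minus H1 difference moved by -1.63 ± 0.82 between srNMPs and neurons (limma adjusted p = 0.933). Among the abundant members, PCDHB2 stood at 17.1 (HUES9) and 46.9 FPKM (H1) in dorsal neurons and at 21.5 (HUES9) and 30.1 FPKM (H1) in ventral neurons. PCDHGB6 stood at 21.9 (HUES9) and 32.6 FPKM (H1) in dorsal neurons and at 33.9 (HUES9) and 33.7 FPKM (H1) in ventral neurons. PCDHGC4 was slightly higher in HUES9 in both, at 10.1 (HUES9) and 9.46 FPKM (H1) in dorsal and 11.7 (HUES9) and 10.2 FPKM (H1) in ventral neurons.

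Genes that act on or with protocadherins were counted from 3 lists. In neurons against srNMPs, where 52.1% of all genes were called (28.8% higher and 23.2% lower), 45.5% of the CTCF and cohesin list, 50% of the silencing list and 71.4% of the WAVE and kinase list were called. There 1 of 11 CTCF and cohesin genes was higher (MAU2, a cohesin loader) and 4 were lower, among them RAD21, a cohesin subunit, at -0.59 ± 0.11 (limma adjusted p = 0.00421). CTCF itself was not called there; it stood at 22.4 to 47.5 FPKM in neurons and 33.3 to 39.9 FPKM in srNMPs. Of 12 silencing genes 1 was higher and 5 were lower. DNMT3A, a DNA methyltransferase, rose by 0.67 ± 0.15, whereas DNMT1, DNMT3B, UHRF1, TRIM28 and REST fell, UHRF1 (a cofactor of DNMT1) by 1.69 ± 0.30 (limma adjusted p = 0.00353). SMCHD1, which silences clustered protocadherins in the mouse, was not called. The median change was -0.09 for the CTCF and cohesin list and -0.14 for the silencing list, against 0.05 over all genes.

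Of 14 WAVE complex and kinase genes 6 were higher and 4 lower in neurons against srNMPs, with a median change of 0.35. CYFIP2 rose by 1.34 ± 0.23 (limma adjusted p = 0.00305), whereas its paralog CYFIP1 fell by 1.26 ± 0.23 (limma adjusted p = 0.00384). RET, a receptor kinase that binds clustered protocadherins, stood at 0.490 to 11.9 FPKM in neurons and 0.0408 to 0.253 FPKM in srNMPs, a change of 2.49 ± 0.51 (limma adjusted p = 0.00615). In srNMPs against ESCs, DNMT3B was the gene of these lists with the largest change, at 26.1 to 53.6 FPKM in srNMPs and 549 FPKM in ESCs (-3.94 ± 0.22, limma adjusted p = 3.60e-05). FYN, a kinase linked to protocadherin signalling, rose by 3.22 ± 0.22 there (limma adjusted p = 0.000124). In muscle against neurons, where 46.5% of all genes were called (14.6% higher and 31.9% lower), 0 of 11 CTCF and cohesin genes were higher and 7 lower (63.6% called), and 1 of 12 silencing genes was higher and 4 lower (41.7%). Of the 14 WAVE and kinase genes 1 was higher and 8 were lower there (64.3%). The median change was -0.50, -0.49 and -0.61 for these 3 lists in that order, against -0.34 over all genes. CYFIP2 fell by 3.64 ± 0.30 (limma adjusted p = 9.14e-05).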

How the data were processed

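TruSeq Stranded mRNA libraries were read on a NovaSeq instrument, per the labels. The submitters' processing notes name Trimmomatic, HISAT2, HTSeq, Cufflinks and build hg18; versions, settings and strand use are not given in the sources used here. The authors deposited 1 table of FPKM per gene symbol. It holds no counts, so no counting interval is given; 1 value column that matched no sample was not used.

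FPKM were log2-transformed after adding 1. limma 3.58.1 (R 4.3.3) fitted group means and the cell line, with a variance trend (5 residual and 2.16 prior degrees of freedom); states with 2 groups were averaged. Tests were two-sided and adjusted over 14129 genes by Benjamini and Hochberg. The interaction was fitted on state and line (7 residual degrees of freedom). ESC and muscle, with single libraries, take their spread from the groups with both lines. The procedure was tested on simulated data. Pairing comes from the cell line in the labels.

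The members and gene lists were chosen with earlier results of these data known. Named members are the called ones with the largest changes per subfamily, up to 5 in each direction at a mean of 1 FPKM or more, the highest uncalled ones, and all non-clustered genes at 1 FPKM. Alternatives were a pseudocount of 0.1 FPKM, no filter, equal totals, quantile normalization, no block, only the 8 libraries compared, each library left out and, added after seeing the data, the RASS labels exchanged or both RASS libraries left out. Coordinates, promoters and exon overlap come from RefSeq and GENCODE annotations of GRCh38, not from the build of the files. A further list of pathway genes is not reported here.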

Additional observations from a re-analysis of the deposited data

How the results depend on the processing

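Members called are counted. For srNMPs against ESCs (3 called) the count was 5 with a pseudocount of 0.1 FPKM, 6 with no filter and 5 with the RASS labels exchanged. For progenitors against srNMPs (1 called) it was 4 with that pseudocount, 2 with no line block, 0 with only the 8 libraries compared, 3 with RASS exchanged and 0 without RASS. For neurons against progenitors (17) it was 29 with RASS exchanged. For RASS against RABC (0) it was 1 each with that pseudocount, with no block and with RASS exchanged. For muscle against srNMPs (4) it was 7 with RASS exchanged. For HUES9 against H1 (0) it was 3 with RASS exchanged and 1 without RASS, and for the interaction (0) 1 with no filter. The cause was not tested. Leaving out 1 library at a time gave 3 to 4 calls for srNMPs against ESCs, 0 to 2 for progenitors against srNMPs, 11 to 33 for neurons against progenitors, 18 to 23 for neurons against srNMPs, 0 to 1 for RASS against RABC, 1 to 6 for muscle against srNMPs, 8 to 11 for muscle against neurons, 0 to 1 for HUES9 against H1 and 0 to 1 for the interaction. Ventral against dorsal neurons and passage 25 against passage 8 gave 0 throughout. The line pairing was used as the block; without it neurons against srNMPs gave 22 calls (24 with it) and neurons against progenitors 18. Of the values of called members under other settings, 446 kept their call, 30 lost it and 0 changed sign; with 1 library left out, 356 kept it, 94 lost it and 0 changed sign. Over all genes, the share of calls that were higher was 55.4% in neurons against srNMPs (72.0% with equal totals, 44.8% after quantile normalization), 56.4% in neurons against progenitors (46.3% after quantile normalization), 50.6% in progenitors against srNMPs (61.8% with equal totals), 71.9% in ventral against dorsal neurons (56.6% after quantile normalization), 36.5% in muscle against srNMPs (49.3% with equal totals) and 31.3% in muscle against neurons (46.2% after quantile normalization). ESC and muscle results rest on libraries with no replicate, and FPKM without counts give no depth limit for members near 0.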
